A study of Mus musculus with 10 samples.

Results

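Fibroblast growth factors (FGFs) were followed in the right atrium of adult mice labelled as controls or as Tbx5 mutants, Tbx5 being a T-box transcription factor of the atria. The 10 genes were Fgf1, Fgf2, Fgf7, Fgf9, Fgf10, Fgf12, Fgf13, Fgf14, Fgf16 and Fgf18, all present among the 23337 genes of the deposited count table. They were chosen by name from the FGF family, with earlier results of these data known. Another 12 FGF genes of the table had too few reads to be tested. Right atria were compared between 4 control mice and 6 mice labelled as having lost Tbx5 through a Cre recombinase expressed from the ubiquitous R26 promoter, so that excision was not limited to cardiomyocytes. The labels gave the strain of every mouse as mix, gave an age of 8 to 10 weeks against 6 to 8 weeks in the protocol text, and did not say which alleles the controls carried. The protocol, written identically for both groups, gave 0.167 mg tamoxifen per day for 3 days with tissue collected 1 week later. Replicates are named below by the sex letter and number of their label, so that the controls were M1, M2, F1 and F2 and the mutants were F1, F2, F3, M1, M2 and M3.

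FGFs fall into groups with separate modes of action. Secreted FGFs bind receptor tyrosine kinases of the Fgfr family together with heparan sulfate, and the signal passes through the adaptors Frs2 and Gab1 to the MAP kinases, which induce feedback inhibitors of the Sprouty family, the phosphatase Dusp6 and ETS factors such as Etv4 and Etv5. The FGF homologous factors, encoded by Fgf11, Fgf12, Fgf13 and Fgf14, are not secreted. They bind the intracellular tail of voltage-gated sodium channels and shape channel inactivation.

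Libraries held 5703775 to 7095141 counts. Mutant M3 stood apart, with 38.9% of its counts from the ribosomal RNA gene Rn45s against 0.268% to 1.49% in the other 9 libraries, which left 3484550 counts for all other genes. Tbx5 itself was higher in the libraries labelled mutant, at 275 to 475 CPM (reads scaled to a common library size by TMM) against 184 to 224 in controls (log2 fold change 0.94, SE 0.15, adjusted p = 0.000495). The count covers the whole gene and not the excised exon 3 alone, so it did not check the genotype label, and every direction given below rests on that label. Xist and Ddx3y reads went against the sex label in all 4 control libraries. The atrial label was met by Myl7 and Nppa, with Nppa at 26827 CPM in controls. Of the 4 ventricular markers, Irx4 had no read in any control, while Myh7, Myl3 and Myl2 were detected there at 131 to 245, 33.3 to 53.6 and 1.71 to 6.63 CPM.

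Start sites are shown for the 4 members that fell more than 2-fold, as the 250 bases before the RefSeq start that lies farthest upstream (assembly GRCm38.p6), written 5′ to 3′ on the strand of the gene with CpG dinucleotides in capitals. The Fgf12 sequence was chr16:28753244-28753493 on the minus strand, Fgf13 was chrX:59585573-59585822 on the minus strand, Fgf7 was chr2:126034408-126034657 on the plus strand and Fgf10 was chr13:118714449-118714698 on the plus strand. None of these windows held an annotated exon.
Fgf12: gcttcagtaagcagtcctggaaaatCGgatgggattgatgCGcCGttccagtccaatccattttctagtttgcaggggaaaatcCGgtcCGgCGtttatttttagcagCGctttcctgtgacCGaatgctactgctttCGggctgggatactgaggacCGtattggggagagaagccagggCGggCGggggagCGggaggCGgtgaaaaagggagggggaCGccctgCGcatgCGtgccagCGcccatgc
Fgf13: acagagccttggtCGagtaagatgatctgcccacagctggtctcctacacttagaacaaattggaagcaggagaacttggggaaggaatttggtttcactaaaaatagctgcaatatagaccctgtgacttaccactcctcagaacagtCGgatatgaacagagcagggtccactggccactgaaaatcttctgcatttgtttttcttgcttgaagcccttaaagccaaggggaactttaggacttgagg
Fgf7: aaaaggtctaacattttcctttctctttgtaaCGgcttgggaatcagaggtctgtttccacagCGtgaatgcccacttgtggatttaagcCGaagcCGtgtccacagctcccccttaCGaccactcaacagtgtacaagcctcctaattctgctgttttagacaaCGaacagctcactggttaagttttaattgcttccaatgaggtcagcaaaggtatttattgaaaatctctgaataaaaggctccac
Fgf10: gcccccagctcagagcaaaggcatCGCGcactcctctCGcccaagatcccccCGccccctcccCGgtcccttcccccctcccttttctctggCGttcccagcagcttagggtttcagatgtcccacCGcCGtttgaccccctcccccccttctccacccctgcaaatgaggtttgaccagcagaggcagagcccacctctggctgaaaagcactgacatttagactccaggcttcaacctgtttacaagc

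These 4 windows differed in composition, and each stands for only 1 start of its gene. They held 18 CpG dinucleotides for Fgf12, 2 for Fgf13, 6 for Fgf7 and 8 for Fgf10, against a median of 10.0 over the 19069 RefSeq starts of genes in the table, and their GC content was 58.4%, 45.6%, 43.6% and 61.2% against a median of 56.0%. The windows at the other RefSeq starts held 33, 6 and 31 CpG dinucleotides for Fgf13 and 24, 25 and 20 for Fgf12. The T-box motif AGGTGT, searched on both strands, was in none of the 4 windows. Over the 14 RefSeq starts of the 8 members with a promoter entry (all but Fgf1 and Fgf16) it occurred at 1, and over all starts it occurred in 11.0%. That match lay 176 bases before the most downstream Fgf12 start, in chr16:28446234-28446263 on the minus strand, and is shown with the motif (read as ACACCT on this strand) in capitals.
Fgf12 T-box match: gagctggggaggACACCTtcggcagctttg

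The GATA motif AGATAA occurred at 1 of the 14 member starts (Fgf9) against 8.69% of all starts, and neither the NKX2-5 motif TNAAGTG nor TATAAA occurred at any of the 14, against 9.35% and 11.3% of all starts. These matches describe letters within 250 bases and do not locate binding.

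In the comparison of mutant with control right atrium, 6 of the 10 members were called lower and none was called higher. A gene was called when its adjusted p was under 0.05 by the edgeR quasi-likelihood test, its fold change was over 1.5 and its control mean was above 1 size-factor-scaled count. By this rule 7.16% of the 13084 genes tested were called lower and 8.50% were called higher. The 6 were the homologous factors Fgf12, Fgf13 and Fgf14 and the secreted ligands Fgf2, Fgf7 and Fgf10, and only Fgf1 among the 7 tested members was not called. DESeq2 called the same 6 lower and 0 higher, and at an unadjusted p under 0.05 by edgeR only Fgf1 was higher. Fgf9, Fgf16 and Fgf18 had too few reads to be tested, and Fgf10 passed the expression filter only through the control libraries. Without Fgf10, 5 members were called lower and in 4 of them the groups did not overlap. In 5 members every mutant library was below every control library, which was the case for 11.0% of all tested genes. Because whole tissue was sequenced, fewer cells of a type and less RNA per cell cannot be told apart.

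**Figure D1:**
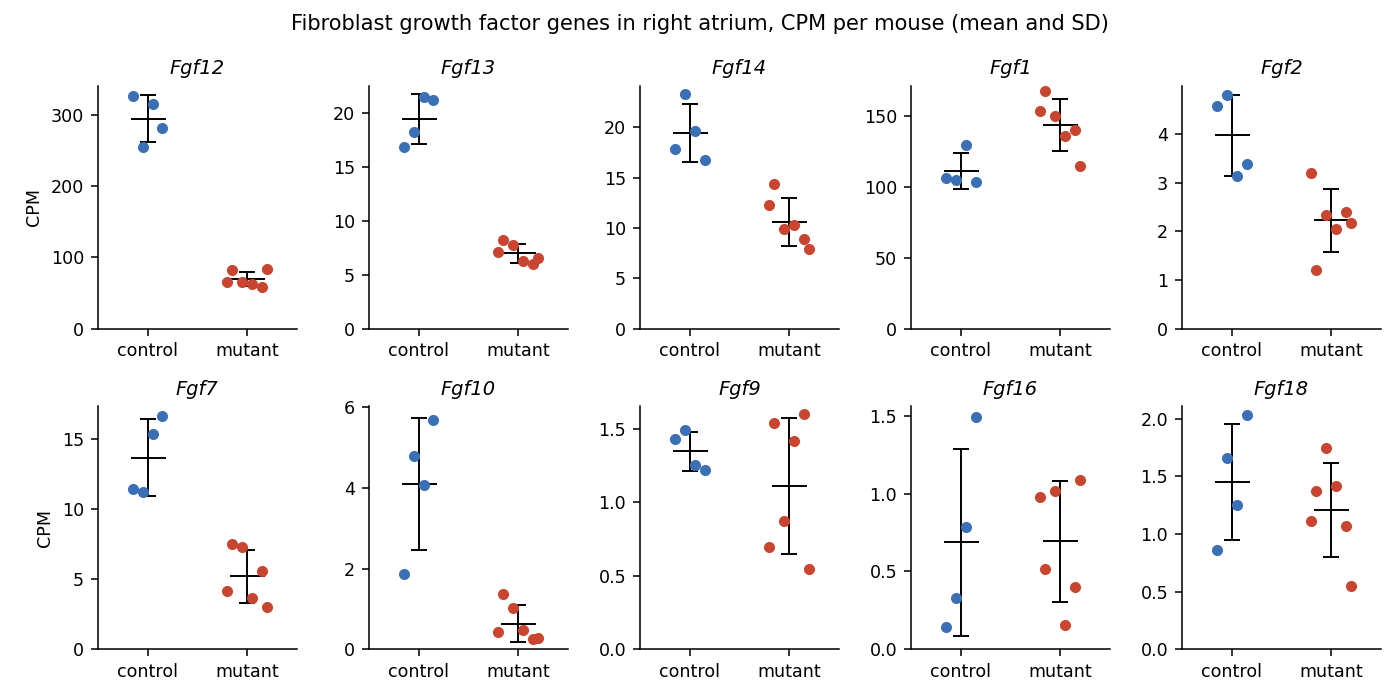
CPM of each member (y axis, linear, from 0, scaled separately in each panel) in 4 control and 6 Tbx5 mutant mice, with points for single mice and the mean and SD in black. Fgf7, Fgf10, Fgf12, Fgf13 and Fgf14 separated into groups that did not overlap, while the remaining 5 overlapped.

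Among the homologous factors, Fgf12 had the highest level and the clearest separation. It is on chromosome 16 (28160098 to 28753068, minus strand, GRCm38). Control libraries M1, M2, F1 and F2 held 327, 255, 315 and 281 CPM, and the 6 mutant libraries ran from 58.2 (F2) through a median of 65.5 to 83.6 (M3). The highest mutant was thus well below the lowest control. The means were 295 ± 32.8 CPM (SD, n = 4) and 69.7 ± 10.4 CPM (SD, n = 6), a 4.24-fold decrease (log2 fold change -2.08, SE 0.12, adjusted p = 3.88e-08). Fgf12 had 1541 to 2289 reads in each control and 307 to 477 in each mutant, so counting error was small beside the difference. Only 70 of the tested genes had a lower log2 fold change.

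Fgf13, the homologous factor best known from the mouse ventricle, is on the X chromosome (59062145 to 59568071, minus strand). Its control values were 16.9, 18.2, 21.5 and 21.2 CPM in M1, M2, F1 and F2, and the mutants ran from 6.00 (F2) through a median of 6.82 to 8.23 (M1). Every mutant was below every control, and the mutants lay close together. The means of 19.4 ± 2.28 CPM (SD, n = 4) and 6.98 ± 0.864 CPM (SD, n = 6) differed 2.78-fold (log2 fold change -1.47, SE 0.13, adjusted p = 3.18e-06). With sex added to the model the log2 fold change was -1.47 under the sexes as labelled and -1.46 with the control labels exchanged.

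Fgf14, linked to inherited ataxia through its role in neurons, is on chromosome 14 (123977907 to 124677127, minus strand). Control libraries M1, M2, F1 and F2 held 17.9, 23.3, 19.6 and 16.8 CPM, and the mutants ran from 7.90 (M3) through a median of 10.1 to 14.4 (M1). The groups did not overlap, although mutant M1 came within a few CPM of control F2. The decrease was 1.81-fold, from 19.4 ± 2.87 CPM (SD, n = 4) to 10.6 ± 2.36 CPM (SD, n = 6), with a log2 fold change of -0.86 (SE 0.16, adjusted p = 0.00117). Of the 50-base stretches of the longest Fgf14 transcript, 3.54% also occurred in the overlapping antisense gene Gm28932. Fgf11, the remaining homologous factor, had too few reads for the test, at 1.42 ± 0.231 CPM in controls (SD, n = 4) and 1.16 ± 0.365 CPM in mutants (SD, n = 6; two-sided exact permutation test, p = 0.238).

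The 3 homologous factors did not fall by the same proportion. Per length (RPKM, reads per kilobase of the longest annotated transcript, scaled like CPM), Fgf12 made up 81.8% to 87.1% of their summed level in controls and 71.8% to 80.8% in mutants. The share of Fgf14 was 5.45% to 8.58% in controls and 8.75% to 15.4% in mutants, and that of Fgf13 was 7.43% to 10.5% in controls and 10.5% to 14.3% in mutants. Their summed level was 75.4 to 90.8 RPKM in controls and 19.0 to 27.0 RPKM in mutants. Fgf12 remained the most abundant of the 3 in every library.

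**Figure D2:**
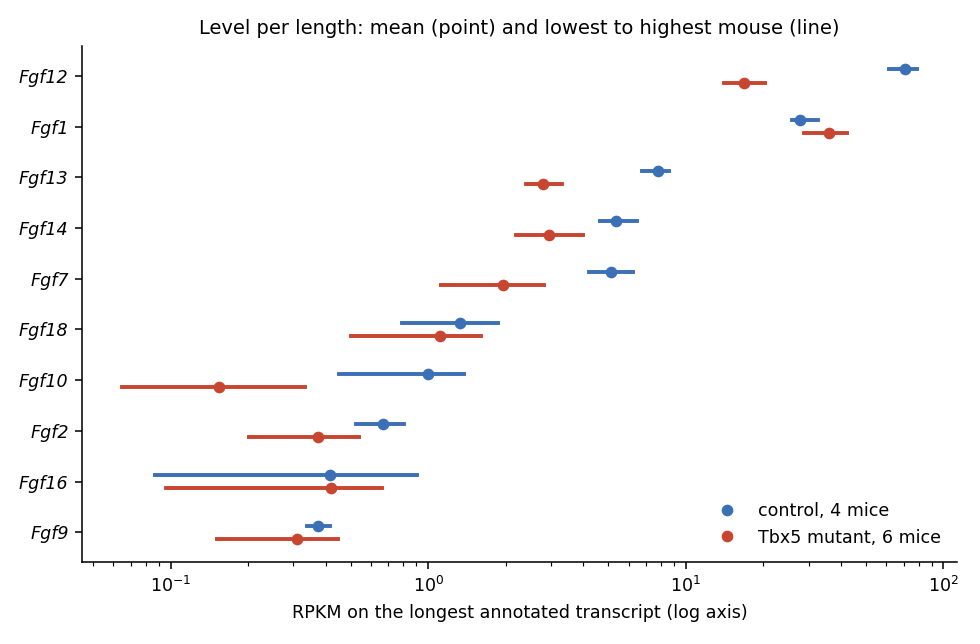
RPKM on the longest annotated transcript (x axis, log scale) for each member in 4 control and 6 Tbx5 mutant mice, with points for the mean and lines from the lowest to the highest mouse. Fgf12 was highest in controls at a mean of 71.2 RPKM, and Fgf1 was highest in mutants at a mean of 36.0 RPKM.

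Genes that encode binding partners of these factors were examined as a list of 14 genes, mostly sodium channel subunits. Of these, 6 were tested and 2 were called lower, against 7.16% called lower over all tested genes. None was called higher by edgeR or DESeq2, nor was any higher at an unadjusted p under 0.05. Scn10a, a sodium channel of sensory neurons also found in heart tissue, fell by 1.96 on the log2 scale (SE 0.39, adjusted p = 0.00225), from 2.86 to 6.90 CPM in controls to 0.158 to 2.33 CPM in mutants. Like Fgf10, it passed the filter only through the controls, and without a filter its adjusted p was 0.00113. Scn4a, the sodium channel of skeletal muscle, fell by 0.79 (SE 0.19, adjusted p = 0.006), with overlapping groups. Jph2, a junctional membrane protein on the same list, had a log2 fold change of 0.12 (SE 0.11, adjusted p = 0.431).

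Among the secreted ligands, Fgf10 had few reads and entered the filtered fit only because its control values were high, so its position there is a description. Fgf10 encodes a ligand of the b splice form of Fgfr2 that marks second heart field progenitors in the embryo, and it is on chromosome 13 (118669791 to 118792115, plus strand). Controls M1, M2, F1 and F2 had 13, 29, 26 and 42 reads, corresponding to 1.86, 4.80, 4.08 and 5.68 CPM. Mutants had 1 to 8 reads each, corresponding to 0.267 (F2) through a median of 0.446 to 1.37 CPM (M1). The lowest control still exceeded the highest mutant. In the fit without a filter on expression, which does not depend on that entry, the log2 fold change was -2.64 (SE 0.41, adjusted p = 0.000144). In the filtered fit it was -2.64 (SE 0.42, adjusted p = 0.000385, 6.22-fold lower), and it was -1.78 on the log2 scale with a prior count of 5, the setting that moved it most. Pooled over libraries, 110 control reads against 24 mutant reads gave a ratio of rates of 6.39 (95% Clopper-Pearson interval 4.08 to 10.4, counting error only).

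Fgf7 encodes keratinocyte growth factor, made by mesenchymal cells and also a ligand of the b form of Fgfr2. It is on chromosome 2 (126034658 to 126091185, plus strand). Controls M1, M2, F1 and F2 held 11.4, 11.2, 15.4 and 16.6 CPM, and mutants ran from 3.0 (M3) through a median of 4.89 to 7.54 (M1). No mutant reached the lowest control. The mean fell 2.58-fold, from 13.7 ± 2.75 CPM (SD, n = 4) to 5.20 ± 1.92 CPM (SD, n = 6), with a log2 fold change of -1.37 (SE 0.23, adjusted p = 0.000555).

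Fgf2 encodes basic FGF, a heparin-binding growth factor of many cell types, and is on chromosome 3 (37348346 to 37410108, plus strand). Controls M1, M2, F1 and F2 held 4.57, 4.80, 3.14 and 3.38 CPM, and mutants ran from 1.20 (M1) through a median of 2.25 to 3.21 (F3). The groups overlapped, since mutant F3 lay just above control F1. The decrease was 1.75-fold (log2 fold change -0.81, SE 0.25, adjusted p = 0.0234), and it was not called after removal of the transcript length trend (adjusted p = 0.0588) or without control M1 (0.0751) or control M2 (0.076). Nudt6 lies on the opposite strand and shares 640 exon bases with Fgf2, and whether the counting used strand was not given in the sources used here. Nudt6 had a log2 fold change of -0.16 (SE 0.15, adjusted p = 0.457).

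Fgf1, acidic FGF, which can activate all the Fgfr kinases, was the only tested member with a positive log2 fold change. It is on chromosome 18 (38838673 to 38929472, minus strand). Controls M1, M2, F1 and F2 held 106, 105, 129.7 and 103 CPM, and mutants ran from 114 (M3) through a median of 145 to 167 (M1). Control F1 lay above mutant M3, so the groups overlapped. The means were 111 ± 12.6 CPM (SD, n = 4) and 143 ± 18.1 CPM (SD, n = 6), and the log2 fold change of 0.37 (SE 0.11, adjusted p = 0.019) corresponded to 1.30-fold, below the 1.5-fold threshold. The adjusted p was 0.0523, 0.0554 and 0.0564 without control M1, M2 and F2.

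The order of the members by level per length changed at the top. Fgf12 exceeded Fgf1 in controls by a ratio of 2.34 to 2.98, and in mutants the ratio was 0.40 to 0.704. In controls Fgf12, Fgf1, Fgf13 and Fgf14 followed each other at means of 71.2, 27.8, 7.78 and 5.37 RPKM with no overlap between neighbours. The separation of Fgf13 from Fgf14 rests on the transcript lengths used (2499 and 3608 bases), since the control mean of each was 19.4 CPM. Fgf14 overlapped Fgf7 (5.12 RPKM), Fgf7 stood clear of Fgf18, and the neighbours from Fgf18 down to Fgf9 (1.33 to 0.375 RPKM) overlapped. In mutants, Fgf1 at 36.0 and Fgf12 at 16.8 RPKM stood apart from each other and from the rest, and all further neighbours, from Fgf14 at 2.94 down to Fgf10 at 0.155 RPKM, overlapped.

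Fgf9, Fgf16 and Fgf18, ligands with roles in heart and lung development, were close to the limit of detection. Fgf9 had 8 to 10 reads in each control and 2 to 12 in each mutant, at 1.35 ± 0.132 CPM (SD, n = 4) and 1.11 ± 0.462 CPM (SD, n = 6; two-sided exact permutation test, p = 0.352). Fgf18 had 6 to 15 and 2 to 12 reads, at 1.45 ± 0.506 CPM (SD, n = 4) and 1.21 ± 0.408 CPM (SD, n = 6; exact permutation test, p = 0.419). Fgf16 had 1 to 11 and 1 to 7 reads, at 0.687 ± 0.599 CPM (SD, n = 4) and 0.693 ± 0.387 CPM (SD, n = 6; exact permutation test, p = 1). A difference was not detectable at this depth: the 95% Clopper-Pearson intervals of the control over mutant ratio of pooled reads were 0.729 to 1.86 for Fgf9, 0.737 to 1.81 for Fgf18 and 0.552 to 2.00 for Fgf16. Of the 12 further FGF genes in the table, none passed the filter, Fgf3, Fgf4, Fgf6, Fgf8, Fgf15 and Fgf20 had no read in any library, and no gene but Fgf11 exceeded 7 reads in a library.

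**Figure D3:**
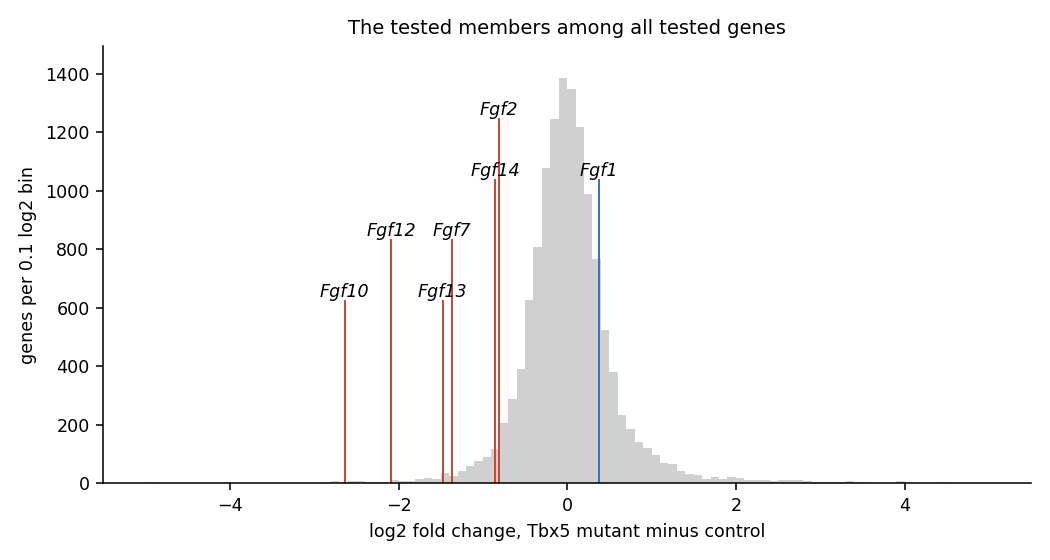
Number of tested genes (y axis) per bin of log2 fold change, mutant minus control (x axis), for all 13084 tested genes in grey, with vertical lines at the 7 tested members (line heights carry no value). Fgf10, Fgf12, Fgf13 and Fgf7 lay in the lower tail, with 39, 70, 149 and 190 tested genes below them, and Fgf1 lay on the other side of 0.

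The other genes of the pathway were examined in 5 lists. The median log2 fold change was -0.00495 for all tested genes, -0.19 for the receptors, -0.03 for the adaptors and MAP kinases, 0.36 for the feedback inhibitors and ETS factors, 0.08 for the heparan sulfate genes and -0.04 for the partners of the homologous factors. Of the 7 receptors and co-receptors, 4 were tested and none was called by edgeR, while 1 (Fgfr1) had an unadjusted p under 0.05 and DESeq2 called 1 (Fgfr4). Fgfr1 was 51.3 to 64.2 CPM in controls and 25.9 to 50.9 CPM in mutants, with every mutant below every control (log2 fold change -0.40, SE 0.16, adjusted p = 0.0695). Fgfr2, whose b form binds Fgf7 and Fgf10, had a log2 fold change of 0.02 (SE 0.18, adjusted p = 0.954), and Fgfr3 had -0.33 (SE 0.19, adjusted p = 0.211). Fgfr4 was below the filter, with 44 control reads and 19 mutant reads in all, and its CPM differed between groups by the two-sided exact permutation test (1.64 ± 1.07 CPM, SD, n = 4, against 0.485 ± 0.165 CPM, SD, n = 6; p = 0.019, where 0.00952 is the smallest the design allows). Control M1 held 22 of the 44 control reads, and without it the difference went from -1.15 to -0.649 CPM (exact permutation test, p = 0.0476). With all libraries and no filter, edgeR gave Fgfr4 a log2 fold change of -1.66 (SE 0.45, adjusted p = 0.0132).

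Downstream of the receptors, 2 of 16 tested adaptor and MAP kinase genes were called lower by edgeR and none higher. Over all tested genes, 7.16% were called lower and 8.50% higher. At an unadjusted p under 0.05, 6 of the 16 were lower and 4 higher. DESeq2 called 1 lower (Gab1) and 0 higher. Gab1, a docking protein for Grb2 and Shp2, was 87.5 to 106 CPM in controls and 49.7 to 66.5 CPM in mutants (log2 fold change -0.73, SE 0.09, adjusted p = 8.03e-05). Frs2, the adaptor that links Fgfr kinases to Grb2, fell by 0.59 on the log2 scale (SE 0.18, adjusted p = 0.0239), with overlapping groups, a fold change at the edge of the threshold and an adjusted p of 0.0961 after removal of the length trend and of 0.0583, 0.0863 and 0.0664 without control M1, M2 and F2. Grb2, Ptpn11 and Mapk3 were not called in this fit.

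The feedback genes moved in both directions. Of 11 tested, 3 were called higher and 1 lower by edgeR, beside 8.50% higher and 7.16% lower over all tested genes. DESeq2 called 4 higher (Etv4 added) and 1 lower, and 6 were higher and 2 lower at an unadjusted p under 0.05. Dusp6, a MAP kinase phosphatase, was 19.7 to 31.4 CPM in controls and 39.3 to 57.4 CPM in mutants (log2 fold change 0.98, SE 0.14, adjusted p = 0.000159). Etv5 was 5.0 to 7.45 CPM in controls and 9.62 to 15.8 CPM in mutants (log2 fold change 1.02, SE 0.17, adjusted p = 0.000663), and Spry1 rose by a log2 fold change of 0.87 (SE 0.20, adjusted p = 0.00575). Etv1, an ETS factor of atrial and conduction myocardium, fell by 1.02 on the log2 scale (SE 0.21, adjusted p = 0.00264). Etv4, below the filter, was 0.396 ± 0.328 CPM in controls (SD, n = 4) and 1.51 ± 0.449 CPM in mutants (SD, n = 6; two-sided exact permutation test, p = 0.019), and its adjusted p by edgeR without a filter was 0.00656. The direction of Dusp6, Etv5 and Spry1 was thus opposite to that of Fgf2, Fgf7 and Fgf10 in the same libraries. It was the same as that of the ligand Fgf1 (log2 fold change 0.37, not called), which had a control mean of 111 CPM. Etv1 moved in the direction of Fgf2, Fgf7 and Fgf10. Links between these directions were not tested.

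Of the 21 tested genes for heparan sulfate and FGF binding proteins, 3 were called lower and none higher by edgeR and by DESeq2. The edgeR shares over all tested genes were 7.16% lower and 8.50% higher. At an unadjusted p under 0.05, 6 of the 21 were lower and 4 higher. Gpc1, a glypican that binds FGFs at the cell surface, fell by 1.24 on the log2 scale (SE 0.12, adjusted p = 7.68e-06) from a control mean of 893 CPM to a mutant mean of 379 CPM. Sulf2, an extracellular heparan sulfatase, and the glypican Gpc3 fell by 0.80 and 0.71 (adjusted p = 0.000158 and 0.000184). Sulf1 had a log2 fold change of -0.17 (adjusted p = 0.307), and the syndecan Sdc4 had 0.58 (adjusted p = 0.00217), under the fold threshold.

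**Figure D4:**
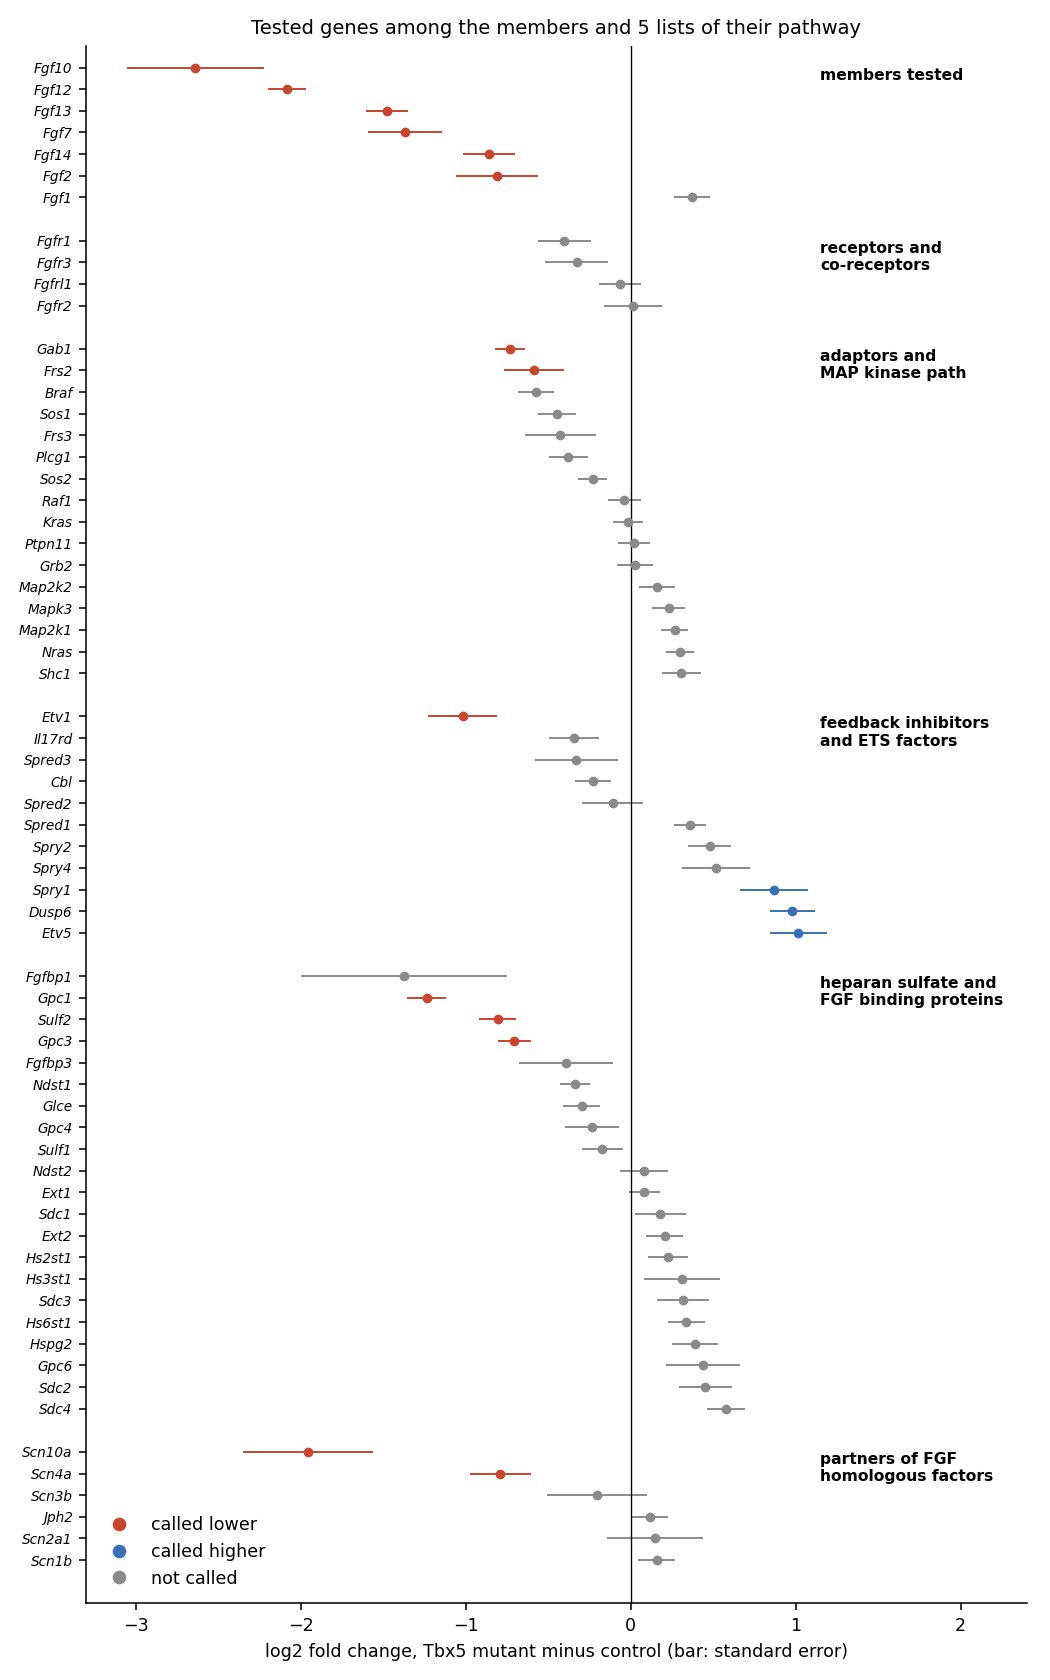
Log2 fold change, mutant minus control, with its standard error (x axis) for the tested genes (rows) reported among the members and 5 lists of their pathway, coloured by call. The members were called lower except Fgf1, the 4 tested receptors were not called, and Dusp6, Etv5 and Spry1 were called higher.

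Cell type markers moved with the groups, and their part in the changes of the members was not tested. Over all tested genes, 7.16% were called lower and 8.50% higher. Of 9 cardiomyocyte markers, not all particular to atria, 4 were called lower (Myl7, Ryr2, Sln and Nppa) and 2 higher (Tnnt2 and Actc1). Nppa had an adjusted p of 0.0426 that reached 0.05 or more in 10 of 21 alternatives. Myl4 fell by 0.44 on the log2 scale (adjusted p = 0.0217), under the fold threshold. The summed level of the 9 was 76726 to 91018 CPM in controls and 62289 to 76052 CPM in mutants. Within that sum, Nppa had means of 26827 CPM in controls and 17114 CPM in mutants. Myh6 (24102 and 25813 CPM, log2 fold change 0.10, adjusted p = 0.711) and Tnni3 (0.03, adjusted p = 0.868) were not called. The ventricular light chain Myl3 rose from 45.4 ± 9.11 CPM (SD, n = 4) to 688 ± 109 CPM (SD, n = 6; adjusted p = 6.13e-09). For Fgf7 and Fgf10, which mesenchymal cells express, none of 7 fibroblast markers was called lower by edgeR or DESeq2 (1, Pdgfra, at an unadjusted p under 0.05) and 2 were called higher. Their summed level was 2928 to 3729 CPM in controls and 3589 to 4959 CPM in mutants, with Dcn at a log2 fold change of -0.01 (adjusted p = 0.952) and Pdgfra at -0.40 (adjusted p = 0.0152, under the fold threshold). All 5 markers of activated fibroblasts were called higher, as were 3 of 4 tested leukocyte markers and 1 of 6 mural markers (Tagln). Cthrc1 (0.857 to 1.99 CPM in controls, 2.00 to 11.6 CPM in mutants) passed the filter only through the mutants. So did Tnc, at 1.57 to 4.47 CPM in controls and 36.1 to 127 CPM in mutants, and both calls are a description. The mural marker Abcc9 was lower (log2 fold change -0.58, adjusted p = 0.000505) and Pdgfrb was higher (0.41, adjusted p = 0.0137), both under the fold threshold. None of 6 endothelial, 6 epicardial or 2 tested Schwann cell and neuron markers was called by edgeR or DESeq2, with 1 endothelial gene lower and 1 epicardial gene higher at an unadjusted p under 0.05, and no adipocyte marker was tested.

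Across genes, which are not independent replicates, the log2 fold change correlated with transcript length (Spearman rho = -0.31 over 11868 tested genes), and the cause was not tested. Removing this trend from each library left Fgf12, Fgf13, Fgf14, Fgf7 and Fgf10 called lower. Without mutant M3, the library with the high Rn45s share, 6 members were still called lower, Fgf2 included.

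**Figure D5:**
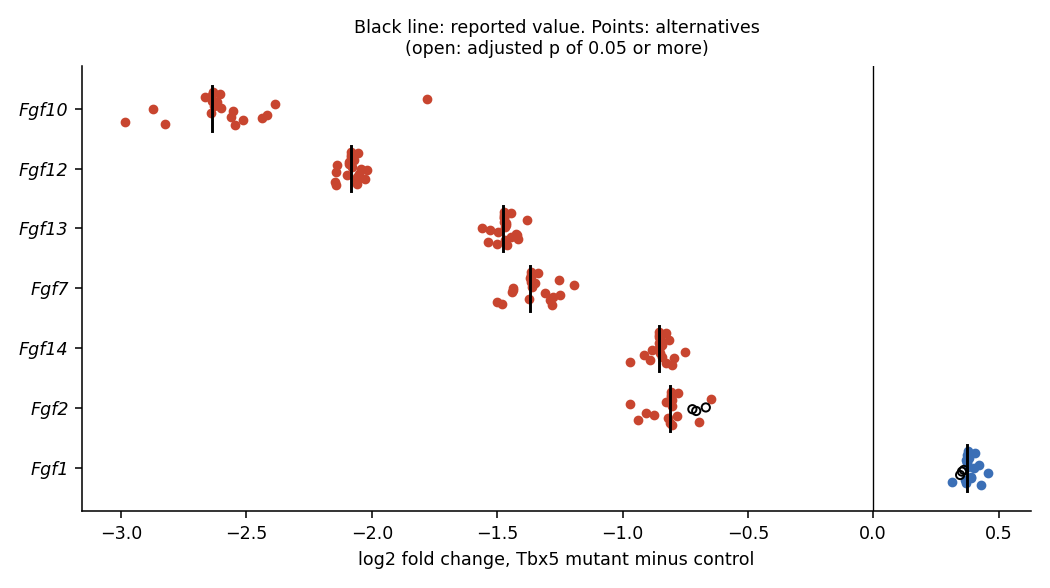
Log2 fold change, mutant minus control (x axis), of each tested member as reported (black line) and under each alternative processing or left-out library (points; open points have an adjusted p of 0.05 or more). Open points occur only for Fgf2 and Fgf1, and the Fgf10 point at -1.78 is the prior count of 5.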

How the data were processed

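RNA from right atria of 10 mice (1 library per mouse) was sequenced, and the authors deposited a single table of genes. It holds counts per gene, a normalized signal (counts divided by a size factor for each library, with its mean), and the authors' own comparison as log2 fold change, a score (the Wald statistic), p-value with adjusted p-value, and linear fold ratio. The columns of that deposited comparison were not used. The submitters' processing notes list FastQC, TopHat2 2.0.11, featureCounts, DESeq2 and the build mm10, with no roles. Strand setting and annotation are not given in the sources used here, and the labels describe both an mRNA kit and ribosomal depletion.

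Counts were tested with the edgeR 4.0.16 quasi-likelihood test (R 4.3.3) after TMM scaling and filterByExpr, with Benjamini-Hochberg adjustment over 13084 genes. A call required an adjusted p under 0.05, a fold change over 1.5 and a control mean of the deposited signal above 1. Each SE is the size of the log2 fold change divided by sqrt(F), and the prior count was 0.125. For genes below the filter, CPM was compared by an exact permutation test (two-sided, 210 arrangements). Transcript lengths and gene coordinates came from GENCODE M21 (GRCm38) and matched 20953 of 23337 genes; promoters came from RefSeq (GRCm38.p6) and matched 8 of 10 members. Levels per length used the longest transcript, and a sequence stretch was called shared when 50 bases matched exactly. DESeq2 1.42.0, other scalings and filters, sex as a covariate, a replicate block, removal of the length trend and leaving out each library served as alternatives. The scripts were tested on simulated data. Libraries held 5703775 to 7095141 counts, intervals cover counting error only, and no 2 libraries of a group agreed within sampling noise (lowest chi-square per degree of freedom 3.75 over 21 pairs). The p-values compare control with mutant mice, judged against the spread between mice of a group.

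The members and the gene lists were chosen with earlier results of these data known. Named genes were all members, Fgfr1 to Fgfr4, Nudt6, Tbx5, the called genes of each list (the 6 largest per direction where more passed), and uncalled genes that complete a family. Some genes of the lists are not reported here, and the counts and medians of the lists leave them out.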

Additional observations from a re-analysis of the deposited data

Results flagged for a closer look

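In 7 of 92 groups of libraries (46 genes, each in controls and in mutants), a single library lay far from the others of its group by Dixon's criterion at the 95% level, where chance gives about 1 in 20, or 4.6 groups. Among the members this was Fgf1 in control F1, at 129.7 CPM against 103 to 106 CPM in the other controls. Spry1 was 45.6 CPM in mutant M2, with the next mutant at 30.9 CPM. Scn4a was 29.3 CPM in mutant M1, with the next mutant at 17.0 CPM. Of the marker genes, Actc1 was 6444 CPM in mutant M1 with the next mutant at 8384 CPM. Mutant M2 had the highest Tnc (127 CPM, next 66.4), Cthrc1 (11.6 CPM, next 5.49) and Cd68 (14.7 CPM, next 9.90).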

How the results depend on the processing

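For 35 of 42 genes in the fit, direction and side of the adjusted p threshold were the same in all alternatives, as were direction and side of the permutation p threshold for 3 of 4 genes below the filter. Fgf7, Fgf10, Fgf12, Fgf13 and Fgf14 held in every alternative that tested them, with log2 fold changes of -1.50 to -1.19, -2.98 to -1.78, -2.15 to -2.02, -1.56 to -1.38 and -0.97 to -0.75. The Fgf10 fits that used the expression filter depended on its high control values, so they are a description. Without that filter its log2 fold change was -2.64 by edgeR (adjusted p = 0.000144) and -2.66 by DESeq2 (adjusted p = 9.3e-07). The adjusted p rose to 0.05 or more in 22 combinations of gene and setting, over 5 genes (Fgf1, Fgf2, Frs2, Nppa and Cthrc1), and the cause was not tested. Members called lower numbered 6 except with a mean count of at least 50 (4, since Fgf2 and Fgf10 were then not tested), with a fold over 2 (4), with the length trend removed (5), and without control M1 or M2 (5 each). With no threshold on fold, 1 member (Fgf1) was called higher, as were 16.3% of all tested genes. Over all genes, 2049 calls became 1284 with a mean count of at least 50, 4096 with no fold threshold and 906 with a fold over 2, and ran from 1807 to 2205 on leaving out single libraries. The signs of 2 values near 0 turned on leaving out a library, with ranges of -0.10 to 0.13 for the Fgfr2 log2 fold change and -0.175 to 0.273 CPM for the Fgf16 difference.

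Libraries with the same replicate number did not deviate together (4 pairs, correlations of -0.0387 to 0.0409) and were not treated as paired. With a replicate block, 6 members and 1957 genes were called, and Fgfr1 passed the adjusted p threshold at a log2 fold change of -0.55 (adjusted p = 0.0168). Depth limited Fgf9, Fgf16 and Fgf18, and Fgf10 in mutants.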

Other observations

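Among the 6 mutant libraries, M1 held the highest CPM of 5 of the 7 tested members (Fgf1, Fgf7, Fgf10, Fgf13 and Fgf14) and the lowest CPM of Fgf2. Without it, the log2 fold changes of Fgf7, Fgf10 and Fgf14 were -1.50, -2.98 and -0.97. This order was noticed after the values were seen and was not tested.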
